A study of Mus musculus with 14 samples.

Results

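The genes described here encode 10 RNA-binding proteins that set splicing and mRNA fate in neurons: Ptbp1, Ptbp2, Elavl2, Elavl3, Elavl4, Rbfox1, Rbfox2, Rbfox3, Nova1 and Nova2. They were chosen by name, and all 10 were found among the 23523 entries of the gene table. The study sequenced polyadenylated RNA from mouse spinal cells of the motoneuron lineage and its neighbours to ask which transcripts respond when motoneurons lose the microRNA miR-218. The embryonic cells used here were taken at stage E12.5 and were sorted by fluorescence from dissected and dissociated spinal cords. Motoneurons carried the Hb9::gfp reporter and gave 6 wild type (WT) libraries and 2 libraries of the 218DKO background, written DKO here. The interneurons were wild type and carried the Rosa26:LSL:tdTomato reporter, switched on by En1:cre (V1), Chx10:cre (V2a) or Sim1:cre (V3), with 1 library each. A Cre reporter marks every cell that ever had the driver active, and GFP from Hb9 marks the cells in which that promoter is on. Mouse embryonic stem cells (mES), differentiated for 4 days with retinoic acid and a sonic hedgehog agonist, gave 1 library of tdTomato-sorted motoneuron progenitors (Olig2:cre;Rosa26:LSL:tdTomato, pMN) and 1 of unsorted neural progenitors (NP). A floor plate sample was not analysed here.

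PTBP1 and PTBP2 are polypyrimidine tract-binding proteins, which bind pyrimidine-rich RNA and mostly repress exons. PTBP1 is typical of dividing and non-neural cells, and PTBP2 takes its place as neurons form, which lets a set of neuron-type exons be included. The ELAVL2, ELAVL3 and ELAVL4 proteins (HuB, HuC and HuD) bind uridine-rich stretches, stabilise mRNAs and also act on splicing and polyadenylation. The RBFOX proteins bind the motif UGCAUG beside regulated exons, and RBFOX3 is the antigen known as NeuN. NOVA1 and NOVA2 bind YCAY clusters and regulate exons of synaptic genes.

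Values are a signal per gene that behaves as scaled for length and between libraries, so that levels of different genes can be set side by side. Approximate depth was 7.45 M and 15.6 M reads in DKO replicates 1 and 2, and 11.9 to 28.5 M reads in the other libraries. For a transcript 2000 bases long, 3 reads were worth a signal between 0.991 (WT replicate 1) and 3.94 (DKO replicate 1). Except for Rbfox1 and Rbfox3 in the mES libraries, every value of the 10 genes lies far above that floor. Of the 4 motoneuron markers (Mnx1, Isl1, Chat and Slc18a3), all were higher in WT motoneurons than in interneurons. Mnx1, the gene of the Hb9 protein, reached 2194 to 4330 in the motoneurons and at most 7.46 in the interneurons. The V2a library nevertheless held the cholinergic genes Slc18a3 (1202) and Chat (309) below the lowest WT motoneuron values (1658 and 339) but far above V1 and V3, which had 20.1 and 92.9 for Slc18a3 and 8.44 and 13.9 for Chat. The V3 library also held Mki67, a marker of dividing cells, at 193 and Top2a at 413, against at most 63.0 and 163 in the V1 and V2a libraries. Of 15 markers of blood, microglia, vessels, mesenchyme, Schwann cells, sensory neurons and muscle, the summed signal was 108 to 428 in WT, 158 and 250 in DKO, and 49.8, 3158 and 725 in the V1, V2a and V3 libraries. Most of the V2a sum was the haemoglobin gene Hba-a1 (2259.7), and the muscle marker Myod1 was listed at 0 in all motoneuron libraries. The part of these cells, and of the cholinergic signal in V2a, in the results was not tested. The table has no entry for either miR-218 gene, so the deletion itself cannot be read from it. WT replicate 2 stood apart in several of the 10 genes, and several results in these genes are given with and without it.

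The mature microRNA removed in the DKO cells is shown first, because microRNAs usually pair with their targets through the seed. The sequence is from RefSeq, and capitals mark the seed, bases 2 to 8.
miR-218-5p: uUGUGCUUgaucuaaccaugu
Sites were searched on the sense strand of the 3′ UTRs in GENCODE M21 (GRCm38) as AAGCACAA (8mer), AAGCACA (7mer-m8) and AGCACAA (7mer-A1), each stretch counted once in its longest class. Of the 10 genes, only Ptbp1 held a match, a single 7mer-A1 at chr10:79864485-79864491 on the plus strand. All 3 of its transcript entries have an annotated 3′ UTR, and 1 of them holds the match. It is printed with its surroundings, the match in capitals.
Ptbp1 site: tggtaccacggAGCACAAaggatgacaag
Among 14711 tested genes with an annotated 3′ UTR, 19.9% held at least 1 such match and 5.25% had the 7mer-A1 as their longest class. By longest class, the median difference in log2(signal + 1) of DKO minus WT motoneurons was 0.31 (8mer), 0.12 (7mer-m8) and 0.08 (7mer-A1). Genes without a match had a median of -0.05, and these medians were not tested. The other 9 genes, with longest 3′ UTRs of 1477 (Rbfox3) to 6701 bases (Nova2), held none of these letters. A match is no evidence of binding, and the lack of one says nothing on sites of other kinds.

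**Figure D1:**
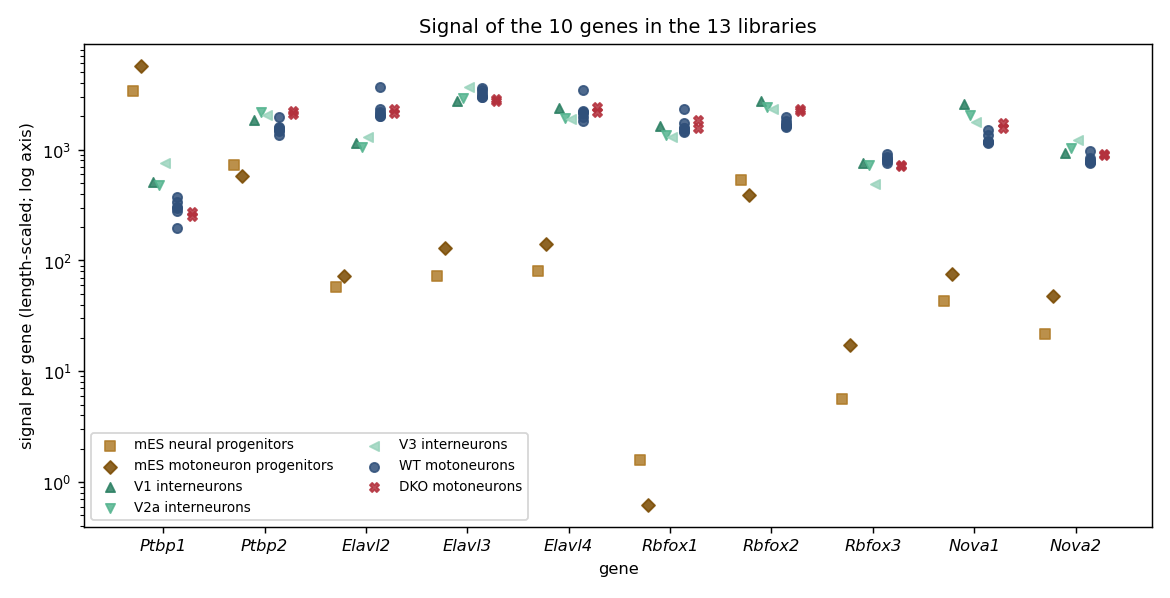
Signal per gene (vertical log axis) of the 10 genes (horizontal axis) in each of the 13 libraries, 1 point a library, coloured by group. Ptbp1 is high in both mES libraries and low in neurons, and the other 9 genes show the opposite order. On this log axis the WT and DKO motoneuron points lie close, though these groups do not overlap for 5 of the 10 genes.

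The polypyrimidine tract-binding pair changed places between progenitors and neurons. Ptbp1 (chr10:79854427-79864771, plus strand of GRCm38) had a signal of 5700.3 in pMN and 3366 in NP, and of 758, 515 and 483 in the V3, V1 and V2a libraries. In WT motoneurons it ran from 198 through a median of 299.9 to 376, and DKO replicates 1 and 2 had 276 and 251. The mES libraries were the highest, every interneuron library lay above every WT motoneuron library, and the DKO values fell within the WT range.

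Ptbp2 (chr3:119718742-119784466, minus strand) went the other way. Its signal was 579 in pMN and 731 in NP, 2060.0, 1863 and 2190.3 in V3, V1 and V2a, 1345 to 1956 (median 1541) in WT motoneurons, and 2083 and 2228 in DKO motoneurons. The V2a, DKO and V3 levels were neighbours that could not be ordered beyond the spread, and the progenitors were clearly lowest. Ptbp1 made up 90.8% (pMN) and 82.2% (NP) of the summed Ptbp signal in the mES libraries, 26.9% in V3, 21.6% in V1 and 18.1% in V2a. In WT motoneurons its share was 9.20% to 19.9%, with WT replicate 2 lowest, and in DKO motoneurons 11.7% and 10.1%. The V3 library, with the highest Ptbp1 share among the neurons, was also the one with the most Mki67 and Top2a signal among them. The V1 library, with the next highest share, had the least of both among the interneurons. The part of dividing cells in these shares was not tested. In bulk samples, fewer cells with a transcript and less of it per cell cannot be told apart.

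**Figure D2:**
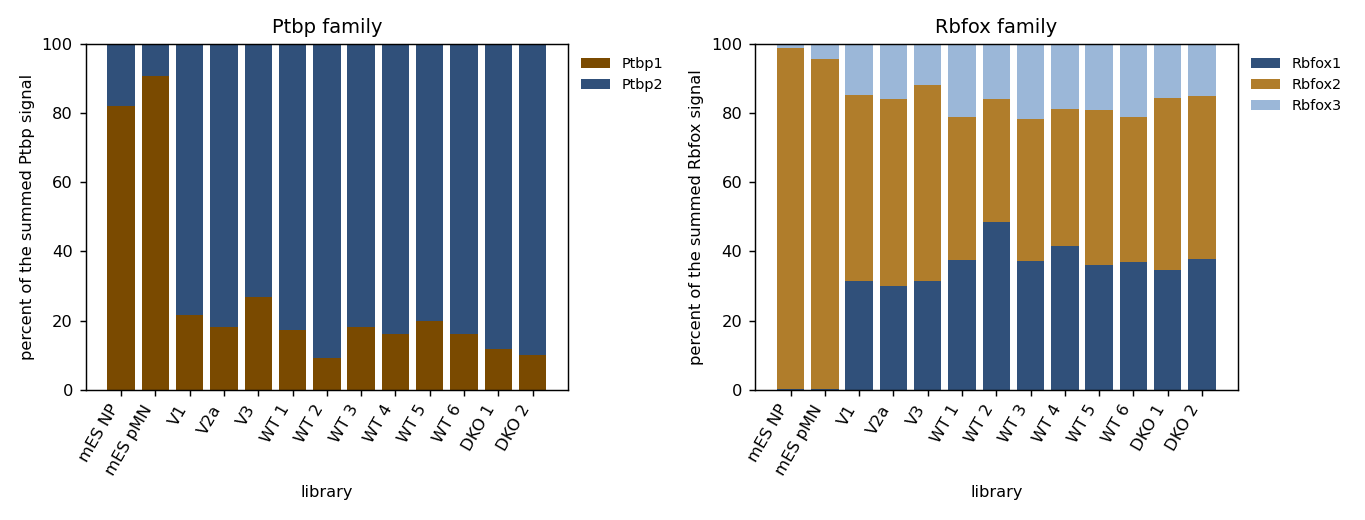
Percent of the summed signal of the Ptbp family (left) and the Rbfox family (right) that each gene makes up, 1 stacked bar for each of the 13 libraries. Ptbp1 makes up 82.2% and 90.8% in the mES libraries and at most 26.9% in neurons, and Rbfox2 goes from over 95% of the Rbfox signal to between 35.5% and 56.8%.

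The 3 neuronal ELAVL genes were lowest in the progenitors and stood at 1067 or more in every neuron library. Elavl3 (chr9:22015005-22052023, minus strand) had 130 in pMN and 72.2 in NP, against 3649, 2909 and 2737 in V3, V2a and V1. Its WT motoneuron libraries lay between 2995 and 3568 (median 3152) and the DKO libraries at 2746 and 2884. Neuron groups overlapped or nearly touched, and only the progenitors stood apart.

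Elavl4 (chr4:110203722-110351909, minus strand) had 140 and 80.2 in pMN and NP, 1881, 1922 and 2357 in V3, V2a and V1, 1816 to 3440 (median 2161) in WT and 2176 and 2418 in DKO motoneurons. Its highest value was WT replicate 2, and without that library the neuron groups still overlapped. Elavl2 (chr4:91250763-91400785, minus strand) alone of the 3 separated motoneurons from interneurons. It had 72.1 and 58.0 in pMN and NP, 1315, 1067 and 1146 in V3, V2a and V1, 1996 to 3642 (median 2165) in WT motoneurons, and 2159 and 2317 in those of the DKO. Every motoneuron library exceeded every interneuron library, and the 2 motoneuron genotypes overlapped. Elavl2 made up 27.2% to 35.3% of the summed Elavl signal in WT motoneurons, 30.5% and 30.4% in those of the DKO, and 18.1% to 19.2% in the interneurons. The summed Elavl signal was 6876 to 10322 in WT motoneurons, 5897 to 6845 in the interneurons and 341 and 210.4 in pMN and NP. WT replicate 2 had the highest share and the highest sum of the WT libraries, and the next highest were 29.8% and 8117.

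The RBFOX genes differed most in how completely they were missing from the progenitors. Rbfox1 (chr16:5885355-7411526, plus strand) had a signal of 0.622 in pMN and 1.58 in NP, which corresponds to about 5 reads in both libraries together. It stood at 1299, 1356 and 1623 in V3, V2a and V1, at 1452 to 2320 (median 1569) in WT and at 1564 and 1845 in DKO motoneurons. Rbfox1 was thus near the detection floor in both progenitor libraries and of similar level in all neurons, with WT replicate 2 again highest.

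Rbfox3 (chr11:118489762-118911597, minus strand) had 17.2 in pMN and 5.61 in NP, 487, 721 and 765 in V3, V2a and V1, 761 to 905 (median 819.9) in WT and 706 and 729 in DKO motoneurons. The V3 library was lowest among the neurons, and both DKO libraries lay just below the WT range. Rbfox2 (chr15:77078990-77307004, minus strand) was the member of the family with the highest signal in progenitors, at 392 in pMN and 537 in NP. It had 2351, 2452 and 2772 in V3, V2a and V1, 1595 to 1954 (median 1679) in WT and 2248 and 2308 in DKO motoneurons. WT motoneurons were the lowest neurons for Rbfox2, and both DKO libraries lay above all of them and below the interneurons.

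Rbfox2 made up 95.6% and 98.7% of the summed Rbfox signal in pMN and NP and 53.7% to 56.8% in the interneurons. In WT motoneurons it was 35.5% to 45.1%, and in DKO motoneurons 49.8% and 47.3%. The progenitor values were thus almost all Rbfox2, while each neuron library held all 3 genes.

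In their group means the NOVA genes followed the same order as Rbfox2, progenitors below WT motoneurons and these below DKO motoneurons and the interneurons. Nova1 (chr12:46694517-46818929, minus strand) had 74.8 and 42.997 in pMN and NP, 1770.1, 2071 and 2581 in V3, V2a and V1, 1156 to 1499 (median 1189) in WT and 1570.0 and 1747 in DKO motoneurons. Both DKO values exceeded the WT range and lay below the interneurons. Nova2 (chr7:18925888-18965319, plus strand) had 48.2 and 21.5 in pMN and NP, 1218, 1033 and 931 in V3, V2a and V1, 765 to 979 (median 794) in WT and 923 and 896 in DKO motoneurons. Its WT and DKO libraries overlapped, and the V1 library lay within the WT range, both only through WT replicate 5 (979). The next highest WT library had 836, below the V1 value and both DKO values. The 2 NOVA genes kept similar proportions, with Nova1 at 57.9% to 73.5% of their summed signal in all 13 libraries.

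The reads carry no strand, so overlapping genes can add to a value. In the annotation, 2652 of 8372 exon bases of Nova2 overlap the noncoding Gm26821 on the opposite strand, 256 of 5014 of Elavl3 overlap Gm49318 on the same strand, and of the 3449 exon bases of Ptbp1, 437 overlap Gm17134, 295 the noncoding E130317F20Rik and 178 the protein-coding Plppr3, all on the opposite strand. The part of these overlaps in the values was not tested.

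The comparison of WT motoneurons (n = 6) with the mES progenitor libraries (n = 2, taken as 1 class) covers the step from progenitor to neuron. Differences are on the log2(signal + 1) scale and were tested with limma with Benjamini-Hochberg adjustment over all tested genes at a threshold of 0.05. Of the 10 genes, 9 were higher in motoneurons, where 30.0% of all tested genes were, and 1, Ptbp1, was lower, where 36.2% were. In all 10 the groups did not overlap, as in 66.1% of all tested genes. The median difference of the 10 genes was 4.53, against -0.12 over all tested genes. Stem cell culture and embryo, and progenitor and neuron, cannot be told apart in this comparison. The mES libraries also held pluripotency genes: Pou5f1, which encodes OCT4, had 731 in pMN and 956 in NP, and Nanog 770 and 533, against at most 1.65 and 16.7 in any neuron library. All 4 pluripotency markers (with Zfp42 and Esrrb) were lower in WT motoneurons, with a summed signal of 1913 to 2163 in the mES libraries and 42.9 to 67.6 in WT motoneurons. Their part in the progenitor differences was not tested.

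Ptbp1 fell 15.2-fold, from 4533 ± 1651 (SD, n = 2) in the progenitors to 299 ± 59.8 (n = 6) in WT motoneurons (log2 -3.90, SE 0.25, limma adjusted p = 3.1e-07). Its paralog Ptbp2 rose 2.41-fold (log2 1.27, SE 0.16, adjusted p = 4.5e-05), the smallest of the 9 rises. Rbfox2 had the next smallest, 3.71-fold (log2 1.90, SE 0.15, adjusted p = 1.2e-06). Both of these genes were already well expressed in the progenitors, as the values by library show.

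The rises of the ELAVL and NOVA genes lay close together. Elavl2 rose 36.7-fold (log2 5.15, SE 0.22), Elavl3 31.9-fold (log2 5.04, SE 0.19) and Elavl4 20.9-fold (log2 4.39, SE 0.26). Nova1 rose 21.4-fold and Nova2 23.6-fold (log2 4.44 and 4.63). The limma adjusted p of these 5 genes lay between 8.5e-09 and 1.6e-07. Rbfox3 rose 72.2-fold (log2 6.23, SE 0.29, adjusted p = 3.4e-08). The folds of Rbfox3 and Nova2 depended on the progenitor library: against NP alone they were 147-fold and 38.3-fold, and against pMN alone 47.9-fold and 17.1-fold. Rbfox1 had the largest difference of the 10 (log2 9.67, SE 0.22, adjusted p = 4.3e-10), and its ratio of signals was 1536 (1071 against NP alone and 2713 against pMN alone). With about 5 reads behind the progenitor level, the exact 95% Poisson interval of the ratio over both libraries ran from 658 to 4731, which covers counting error only.

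The interneurons (n = 3) were compared with the same 2 progenitor libraries, so the 2 comparisons are not independent. Again 9 of the 10 genes were higher, against 24.8% of all tested genes, and Ptbp1 was lower, against 29.0%. All 10 had groups that did not overlap, as 73.5% of all tested genes did. Ptbp1 was 7.75-fold lower in the interneurons (log2 -2.93, SE 0.30, limma adjusted p = 0.0010). Ptbp2 was 3.11-fold and Rbfox2 5.43-fold higher (log2 1.64 and 2.45), and Rbfox1 again had the largest difference (log2 9.44, adjusted p = 9.0e-05). The remaining 6 genes were 18.1-fold (Elavl2) to 57.5-fold (Rbfox3) higher. Against NP and pMN alone the folds were 117 and 38.1 for Rbfox3, 49.3 and 22.01 for Nova2 and 905 and 2291 for Rbfox1. Of the 4 pluripotency markers, 3 were lower in the interneurons.

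WT motoneurons and interneurons are both neurons of the same stage, and here the families split. Of the 10 genes, only Elavl2 was higher in motoneurons, where 17.7% of all tested genes were. Ptbp1, Ptbp2, Rbfox2, Nova1 and Nova2 were lower, 5 of 10, against 15.2% of all tested genes. Elavl3, Elavl4, Rbfox1 and Rbfox3 did not pass the test. The groups did not overlap for 4 of the 10 (Ptbp1, Elavl2, Rbfox2 and Nova1), and for 33.1% of all tested genes. The median difference of the 10 was -0.15, against -0.04 over all tested genes. The interneuron class joins 3 cell types with 1 library each, so its spread includes differences between types.

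Elavl2 was 2.03-fold higher in motoneurons, 2385 ± 628 (n = 6) against 1176 ± 127 (n = 3; log2 0.99, SE 0.18, limma adjusted p = 0.0023). Its direction and call held without any single library, with adjusted p of 3.3e-04 to 0.0134. Without WT replicate 2 the difference was 0.86. Ptbp1 was 1.96-fold lower (299 ± 59.8 against 585 ± 151; log2 -0.97, SE 0.20, adjusted p = 0.0049). The call of Ptbp1 held without any single library, with a difference between -1.09 and -0.76 (adjusted p 0.0042 to 0.0211). The part of dividing cells in this difference was not tested.

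Nova1 was 1.70-fold lower in motoneurons, 1259 ± 137 against 2141 ± 410 (log2 -0.75, SE 0.13, limma adjusted p = 0.0018). Rbfox2 was 1.46-fold lower, 1724 ± 134 against 2525 ± 220 (log2 -0.55, SE 0.09, adjusted p = 0.0018). Both calls held without any single library. The 2 smaller differences did not: Ptbp2 (1.29-fold lower, log2 -0.38, SE 0.12, adjusted p = 0.0307) kept its call in 3 of 9 left-out fits and Nova2 (1.29-fold lower, log2 -0.36, SE 0.11, adjusted p = 0.0301) in 5 of 9. Without V2a the adjusted p of Ptbp2 was 0.119 (range over all its alternatives 0.0055 to 0.119), and without V3 that of Nova2 was 0.133 (range 0.0121 to 0.161).

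Among the genes that did not pass, Rbfox3 had a difference of 0.35 (95% interval 0.06 to 0.65, adjusted p = 0.0659), and without the V1 library it passed at 0.47 (adjusted p = 0.0313, range over all alternatives 0.0313 to 0.289). Rbfox1 differed by 0.23 (interval -0.10 to 0.56), Elavl4 by 0.13 (-0.26 to 0.53) and Elavl3 by 0.06 (-0.18 to 0.31).

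**Figure D3:**
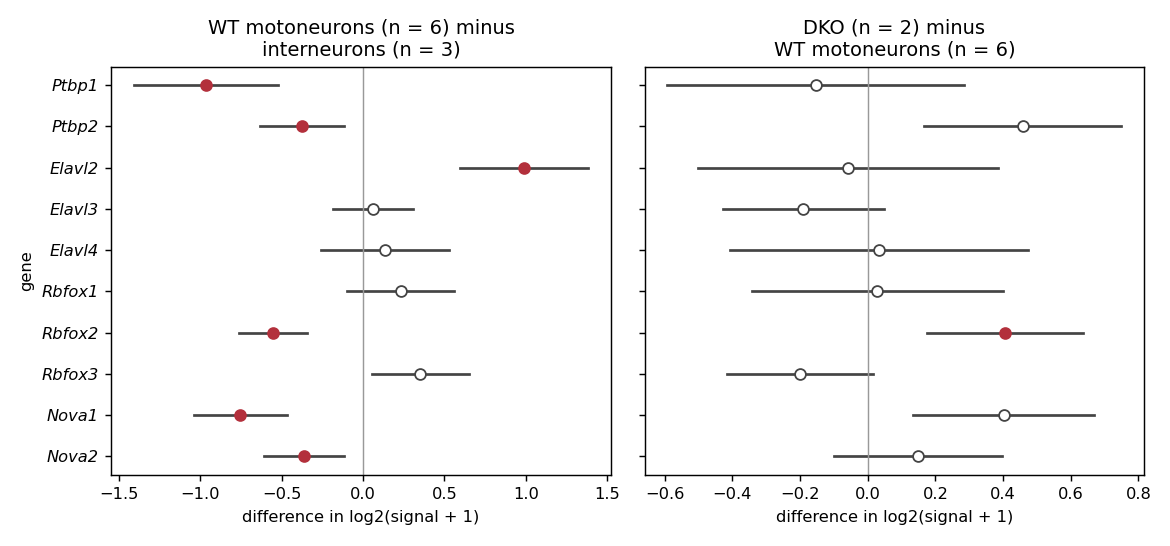
Differences in log2(signal + 1) of the 10 genes (vertical axis) between WT motoneurons and interneurons (left) and between DKO and WT motoneurons (right), with points for the limma estimates, lines for their 95% intervals and filled red points for adjusted p below 0.05. On the left Elavl2 is higher and 5 genes are lower in motoneurons, and on the right Rbfox2 alone is filled.

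The comparison of DKO (n = 2) with WT motoneurons (n = 6) asks how the loss of miR-218 bears on these genes. Of the 10, only Rbfox2 was higher, against 3.22% of all tested genes, and none was lower, against 4.77%. Without adjustment, Rbfox2, Ptbp2 and Nova1 had limma p-values of 0.0027, 0.0053 and 0.0069, and no other gene of the 10 was below 0.05. The groups did not overlap for 5 of the 10 (Ptbp2, Elavl3, Rbfox2, Rbfox3 and Nova1), and for 30.7% of all tested genes. The median difference of the 10 was 0.03, against 0.002 over all tested genes. Some cell-type markers moved in the same comparison. Of 8 progenitor markers, Vim (4292 to 1979, adjusted p = 0.0027) and Top2a (23.6 to 2.91, adjusted p = 0.0108) were lower in DKO motoneurons. The summed signal of the 8 was 3992 to 5429 in WT and 2046 and 2419 in DKO libraries. Most of that sum was Vim, with 3601 to 5184 in WT and 1809 and 2150 in DKO libraries. Of 8 neuron markers Tubb3 was lower (39725 to 23031, adjusted p = 0.0393), and of the 4 motoneuron markers Slc18a3 (2198 to 1338, adjusted p = 0.0347), all with limma. The other 6 progenitor, 7 neuron and 3 motoneuron markers did not pass. The highest differences in these 3 lists were 0.59, 0.33 and 0.41, and the medians -0.81, -0.12 and 0.17. The part of these marker changes in the DKO differences was not tested.

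Rbfox2 was 1.32-fold higher in DKO motoneurons, 2278 ± 42.2 (n = 2) against 1724 ± 134 (n = 6; log2 0.40, SE 0.10, limma adjusted p = 0.0400). The size of the difference lay between 0.38 and 0.44 without any 1 library, but the call did not hold throughout. It was lost without WT replicate 3 (adjusted p = 0.0713), 4 (0.0744) or 6 (0.0627), without DKO replicate 1 (0.241) and without DKO replicate 2 (0.281). Over all alternatives its adjusted p lay between 0.0159 and 0.281. With only 1 DKO library left, that library is assumed to vary like the WT libraries.

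Ptbp2 and Nova1 had differences of the same size that did not pass. Ptbp2 had 2155 ± 102 in DKO against 1578 ± 207 in WT motoneurons (log2 0.46, 95% interval 0.17 to 0.75, adjusted p = 0.0572). Nova1 had 1659 ± 125 against 1259 ± 137 (log2 0.40, interval 0.13 to 0.67, adjusted p = 0.0658). In both genes WT replicate 2 was the WT library closest to the DKO values. Without WT replicate 2 both passed, Ptbp2 at 0.52 (adjusted p = 0.0095) and Nova1 at 0.45 (adjusted p = 0.0148). Leaving out any other single WT library gave no call in either gene. The limma adjusted p then lay between 0.0624 and 0.0997 for Ptbp2 and between 0.0785 and 0.114 for Nova1. Over all alternatives the adjusted p reached 0.502 for Ptbp2 and 0.4304 for Nova1, both with the replicate number as a block.

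The other 7 genes gave no call. Ptbp1, the gene with the 7mer-A1 match, had 264 ± 17.4 in DKO against 299 ± 59.8 in WT motoneurons (log2 -0.15, 95% interval -0.59 to 0.29, adjusted p = 0.659). Rbfox3 (log2 -0.20, interval -0.41 to 0.02) and Elavl3 (-0.19, interval -0.43 to 0.05) had DKO values just below the WT range. Nova2 had a difference of 0.15 (-0.10 to 0.40), Elavl2 of -0.06 (-0.50 to 0.38), Elavl4 of 0.03 (-0.41 to 0.47) and Rbfox1 of 0.03 (-0.34 to 0.40). The intervals of Elavl2, Elavl4 and Rbfox1 are wide, and WT replicate 2 lies far above the other WT libraries in these genes. The interval of Ptbp1 is about as wide as those of Elavl2 and Elavl4. With 2 DKO libraries, small differences in these 7 genes cannot be judged.

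Other RNA-binding proteins of the same pathways were taken from 3 lists. The first holds 22 further splicing regulators, among them the CELF, MBNL, KHDRBS and ESRP families and some broadly expressed genes such as Elavl1, the second 20 proteins of mRNA translation, localisation and decay, and the third 25 general splicing factors. Between progenitors and WT motoneurons, 8 of the 22 further regulators rose, 7 fell and 7 did not pass, shares near those of all tested genes (30.0% rose and 36.2% fell). Khdrbs2 (a relative of SAM68) rose from 1.19, near the detection floor, to 285 and Celf4 from 14.5 to 925. Esrp1, a regulator of epithelial exons, was listed at 0 in all 6 WT motoneuron libraries and at a mean of 163 in the progenitors. The median difference of this list was 0.16, against -0.12 over all tested genes.

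Of the 20 mRNA fate proteins, 6 rose (Cpeb3 13.7-fold, Stau2 8.44-fold and Cpeb2 5.96-fold first), the same share as the 30.0% of all tested genes, and 11 fell, against 36.2%. Lin28a, an RNA-binding protein of stem and progenitor cells, fell 192-fold, Igf2bp1 12.1-fold and the progenitor protein gene Msi2 3.52-fold. Of the 25 general factors, 22 fell and only Matr3, which encodes matrin 3, rose (1.79-fold). Hnrnpf had the smallest adjusted p among the falls (9.12-fold lower), and the median of the list was -1.01.

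Between WT motoneurons and interneurons, the further regulators were higher for 2 genes, lower for 11 and not passed for 7 of 20 tested, against 17.7% higher and 15.2% lower over all tested genes. The 2 that were higher were Qk (quaking, 2.58-fold) and Ptbp3 (2.14-fold), the third polypyrimidine tract-binding paralog. Ptbp3 had 386 ± 84.6 in WT motoneurons and 181 ± 43.01 in interneurons (limma adjusted p = 0.0020), the reverse order of Ptbp1 and Ptbp2. Among the lower genes, Celf2 was 2.95-fold, Celf1 1.60-fold and Elavl1 (HuR, the broadly expressed ELAVL protein) 1.65-fold lower. Of the 20 mRNA fate proteins, 2 were higher (Cpeb1 3.92-fold and Stau2 1.55-fold) and 7 lower (Msi2 2.49-fold first), and of the 25 general factors 9 were lower (Srsf4 1.63-fold first) and none was higher, also without adjustment. The median differences were -0.51 for the further regulators, -0.29 for the mRNA fate proteins and -0.22 for the general factors, against -0.04 over all tested genes.

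In DKO against WT motoneurons, 3 of 19 tested further regulators rose and none fell with limma (3.22% and 4.77% of all tested genes), and without adjustment 5 were higher and none lower at p below 0.05. They were 3 CELF genes, whose proteins regulate neuronal splicing and mRNA translation: Celf4 had 1536 and 1553 in DKO against 839 to 1047 in WT libraries (1.67-fold, limma adjusted p = 0.0033), Celf6 rose 1.67-fold (adjusted p = 0.0076) and Celf2 1.82-fold (adjusted p = 0.0144). The CELF genes Celf1, Celf3 and Celf5 of the same list did not pass. Both DKO values lay above the WT range for Celf1 and Celf5. For Celf3 they lay within it (2441 and 2297 against 2097 to 2968). The median of the list was 0.21, against 0.002 over all tested genes. Of the 20 mRNA fate proteins, Pum2 and Cpeb2 rose (1.60-fold and 1.56-fold) and Igf2bp1 and Igf2bp3 fell (2.21-fold and 2.05-fold).

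Of the 25 general factors, 2 fell in DKO motoneurons, against 4.77% of all tested genes. Both encode ribonucleoproteins known as partners of PTBP1. Raver1 had 276 and 299 in DKO against 388 to 451 in WT motoneurons (1.46-fold lower, limma adjusted p = 0.0146), and Raver2 had 27.5 and 23.5 against 39.8 to 50.7 (1.84-fold lower, adjusted p = 0.0224). In neither gene did the groups overlap, as in 30.7% of all tested genes. None rose after adjustment, against 3.22% of all tested genes. Without adjustment 1 of the 25 was higher at a limma p below 0.05, and the median of the list was 0.07.

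For some genes the table of 31702 transcript entries separates entries with and without a given exon. A share below is the percent of the gene's signal in entries that hold the exon. Entries share most of their reads and can differ elsewhere, so these shares are estimates of the authors' processing and no test was made on them. The exons were chosen after the table had been seen. The first are exons of the regulators themselves, printed where the finding turns on them, and beside the matching exon of a paralog where one was read. In each pair, capitals mark the bases at which the paralogs differ.
Elavl2 exon: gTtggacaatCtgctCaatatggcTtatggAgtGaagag
Elavl4 exon: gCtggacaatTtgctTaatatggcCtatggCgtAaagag
The Elavl2 exon (chr4:91254141-91254179, minus strand, coding exon 6 of 7 in the entry read) and the Elavl4 exon (chr4:110209740-110209778, minus strand, exon 6 of 7) both have 39 bases, keep the reading frame and are the same at 33 of them. They lie in the hinge between RNA-binding domains. The Elavl2 exon was in 97.2% to 100% of the signal in WT motoneurons, 97.2% and 97.9% in DKO motoneurons and 97.9% to 98.7% in interneurons. In the progenitors it was 31.4% (pMN) and 60.5% (NP), at Elavl2 signals of 72.1 and 58.0. The Elavl4 exon varied less, from 75.7% to 84.1% in WT motoneurons, 76.6% and 67.3% in DKO motoneurons, 75.6% to 81.2% in interneurons and 67.9% and 64.0% in pMN and NP. Elavl4, with the similar exon, thus did not show the same step between progenitors and neurons.

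The RBFOX genes carry a pair of alternative exons of 40 and 43 bases, of which a transcript entry holds at most 1, and which encode different stretches of the C-terminal region.
Rbfox1 40-base exon: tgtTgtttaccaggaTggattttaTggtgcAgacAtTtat
Rbfox2 40-base exon: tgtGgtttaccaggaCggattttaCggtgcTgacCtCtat
Rbfox1 43-base exon: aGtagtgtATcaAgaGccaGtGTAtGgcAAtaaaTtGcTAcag
Rbfox2 43-base exon: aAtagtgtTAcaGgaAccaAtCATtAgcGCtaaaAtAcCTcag
The 40-base exons lie at chr16:7363865-7363904 (Rbfox1) and chr15:77094451-77094490 (Rbfox2) and are the same at 34 bases. The 43-base exons, at chr16:7369801-7369843 and chr15:77091812-77091854, are the same at 27. In Rbfox1 the 43-base exon was in 79.3% to 88.1% of the signal in every neuron library, while in the progenitors too few reads were present for a share. In Rbfox2 the 40-base exon prevailed instead. Its share was 54.9% to 73.2% (median 64.0%) in WT motoneurons, 86.8% and 74.3% in DKO motoneurons, 84.9% to 88.1% in interneurons and 82.4% and 90.5% in pMN and NP. The Rbfox2 43-base exon had 16.0% to 32.3% in WT motoneurons, 6.20% and 17.6% in DKO motoneurons and 6.43% to 8.91% in interneurons. WT motoneurons thus had the lowest 40-base share of all groups. Both DKO libraries lay above the WT range, replicate 2 only just (74.3% against 73.2%). For the 43-base exon, DKO replicate 2 (17.6%) lay within the WT range.

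Rbfox2 also starts at far-apart first exons, 153372 bases between the outermost starts. Entries with the distal start (3 of 9) gave 47.1% (pMN) and 29.0% (NP) of the Rbfox2 signal in the progenitors, 6.96% to 15.9% in WT motoneurons, 7.06% and 8.08% in DKO motoneurons and 6.64% to 9.33% in interneurons. In signal, the distal entries had 118 to 264 in all 13 libraries, while the proximal entries had 208 and 381 in pMN and NP and 1400.0 to 2587 in the neurons. The higher Rbfox2 level of neurons was therefore in the proximal entries.

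A 93-base exon within the RNA-binding domain is shared by Rbfox2 and Rbfox3, and its skipping is known to give proteins that bind RNA poorly.
Rbfox2 93-base exon: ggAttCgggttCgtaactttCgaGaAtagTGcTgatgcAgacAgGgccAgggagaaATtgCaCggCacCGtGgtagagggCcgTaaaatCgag
Rbfox3 93-base exon: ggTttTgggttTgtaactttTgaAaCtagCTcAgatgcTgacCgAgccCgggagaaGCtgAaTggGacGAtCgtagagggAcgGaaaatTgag
They lie at chr15:77105577-77105669 and chr11:118502842-118502934 (both minus strand) and are the same at 69 bases. The exon was in 89.6% to 96.6% of the Rbfox2 signal in the 13 libraries. In Rbfox3 it was in 96.7% to 100% in WT motoneurons, 95.1% and 100% in DKO motoneurons and 90.9% to 97.5% in interneurons.

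Ptbp1 has a 78-base coding exon (chr10:79860117-79860194, plus strand, exon 8 of 14) in the linker between RNA-binding domains, known to affect how strongly PTBP1 represses its targets.
Ptbp1 78-base exon: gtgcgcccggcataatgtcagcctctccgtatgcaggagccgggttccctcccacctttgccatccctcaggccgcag
Its share was 32.8% to 47.1% in WT motoneurons, 33.5% and 32.8% in DKO motoneurons, 32.2% to 39.7% in interneurons, and 33.3% and 39.3% in pMN and NP. The level of Ptbp1 thus differed 15.2-fold between progenitors and motoneurons while this share kept the same range.

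A list of 13 genes whose RNAs are reported elsewhere to be bound or spliced by these proteins was read out as well. Between progenitors and WT motoneurons 12 of the 13 rose and 1 missed the threshold, against 30.0% of all tested genes that rose, and the median difference was 4.13, against -0.12. Between WT motoneurons and interneurons 6 were higher (Gap43 3.26-fold, Gabbr1 1.35-fold and Dab1 2.50-fold first) and 2 lower (Ank3 and Bdnf), against 17.7% and 15.2% of all tested genes. In DKO against WT motoneurons limma called none of the 13, against 3.22% higher and 4.77% lower over all tested genes (2 were higher and 2 lower at an unadjusted p below 0.05). Of these genes, Src has entries with and without a well-studied regulated exon, which is printed for that reason.
Src exon: gaggaaggtggatgtcag
The Src exon (chr2:157458843-157458860, plus strand, exon 6 of 15) is the 18-base microexon N1 of the tyrosine kinase SRC, a classic exon repressed by PTBP1 and included in neurons. Its share was 8.54% in pMN and 20.5% in NP. It was 84.1% to 91.4% in interneurons, 82.4% to 96.6% in WT motoneurons and 84.9% and 94.8% in DKO motoneurons. The progenitor and neuron libraries did not overlap, and all neuron groups did. The Src signal itself was 253 and 376 in pMN and NP and 484 to 715 in neurons.

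**Figure D4:**
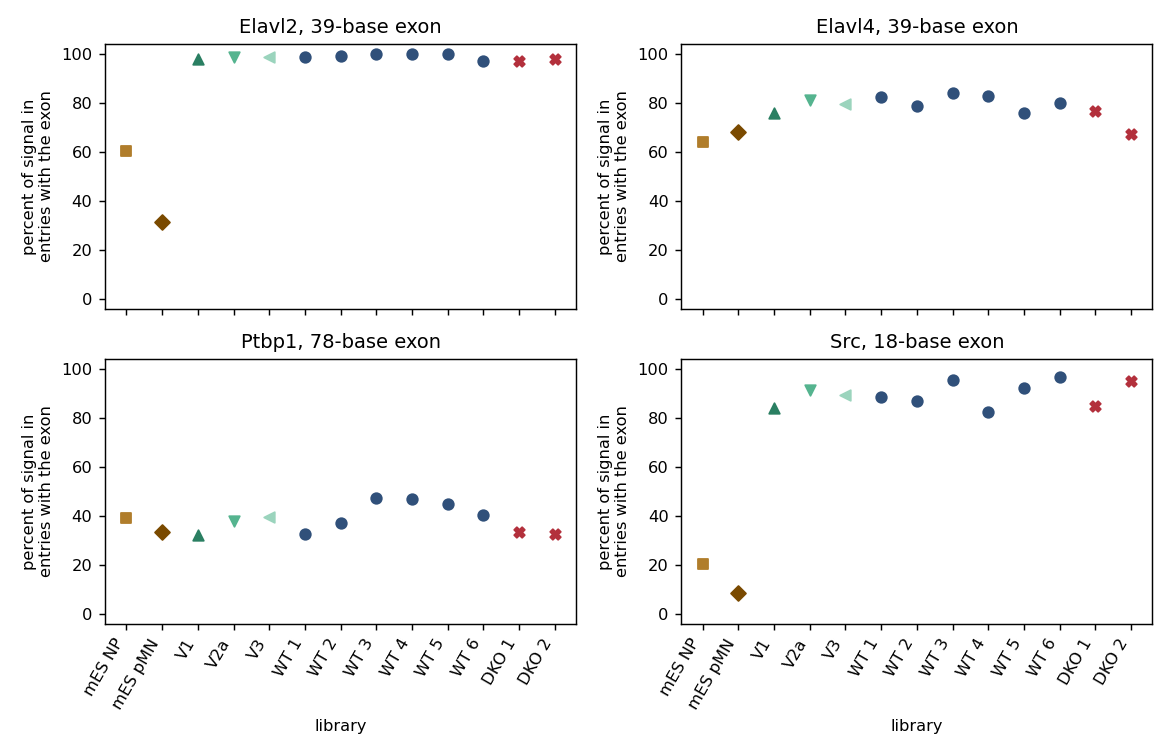
Percent of a gene's signal in transcript entries that hold a given exon (vertical axis) in each of the 13 libraries (horizontal axis), for exons of Elavl2, Elavl4, Ptbp1 and Src, with colours and marker shapes by group. The Elavl2 and Src exons step up between mES progenitors and neurons, the Ptbp1 exon stays between 32.2% and 47.1%, and the Elavl4 exon between 64.0% and 84.1%.

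The genes most like each of the 10 were taken as the 3 with the highest Pearson correlation of log2(signal + 1) over the 13 libraries, among genes whose mean signal reached 10. The libraries fall into progenitors and neurons, so high values reflect that split for most genes, and they are given as a description. Ptbp1 was most like Dnmt1, a DNA methyltransferase (r = 0.992), Pak4 and Espl1, which encodes separase. Ptbp2 was most like Rpgr (r = 0.992), Taok3 and Brd9. Rbfox1 was most like Dcx, the gene of the microtubule protein doublecortin (r = 0.998), Cacng2 and Rundc3b. Rbfox2 was most like Aak1 (r = 0.994), Dpf3 and Rasal2, and Rbfox3 like Atp6v0a1 (r = 0.998), Lrrtm1 and Ptpn5.

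Elavl2 was most like Tmeff1 (r = 0.995), Frmd3 and Clasp2, and Elavl4 like Nudt10 (r = 0.996), Scg3 and Phyhipl. For Elavl3 the leading gene was Spock1 (r = 0.998), followed by an entry whose symbol the table holds as a date, and Soga3. Nova1 was most like Grik2, a kainate receptor subunit (r = 0.997), Mapk10 and Asic1, and Nova2 like Fam57b (r = 0.997) and Arhgap33.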

How the data were processed

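The deposited signal per gene and per transcript was made by the authors on RefSeq transcripts; a gene's value is the sum of its transcript entries. The submitters' processing notes name DESeq, bedtools, mm9 and mm10 without roles or versions, and the aligner is not given in the sources used here. Depth was estimated from low values, of which 77.0% to 78.5% were within 0.1 of a whole multiple of 1 read (20% by chance). Differences were tested two-sided with limma 3.58.1 (R 4.3.3, trended prior) on log2(signal + 1) for genes whose mean signal reached 1, so fold changes of low genes are understated on that scale; folds in the text are ratios of mean signals. The labels do not say that replicates were separate animals, so p-values measure the spread between these samples, which may be technical. The script was tested on simulated data. All 10 genes are named in every comparison; from each list, up to 3 genes per direction with the smallest adjusted p. Some genes are not reported here. The members and lists were chosen with earlier results of these data known. Coordinates and exons come from GENCODE M21 (GRCm38), matched by transcript accession for every entry of the 10 genes. Alternatives were other pseudocounts, filters, scalings, priors, sample sets, each library left out and a replicate block.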

Additional observations from a re-analysis of the deposited data

Results flagged for a closer look

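Within the 6 WT motoneuron libraries, 4 of the 10 genes had 1 library far from the other 5 by Dixon's criterion, which chance meets in about 1 of 20 groups. In WT replicate 2 this was so for Elavl2 (3642, others at most 2323), Elavl4 (3440, others at most 2226) and Rbfox1 (2320, others at most 1751). In WT replicate 5 it was so for Nova2 (979, next 836). WT replicate 2 also had the lowest Ptbp1 (198) and the highest Ptbp2 (1956) of the WT libraries, which did not meet the criterion. What sets these libraries apart was not tested.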

How the results depend on the processing

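With 2 DKO libraries and 1 library per interneuron and progenitor type, small differences and single types cannot be judged, and transcript entries share reads. All 10 calls of each progenitor comparison, and the calls of Ptbp1, Elavl2, Rbfox2 and Nova1 between WT motoneurons and interneurons, held under every alternative run. For DKO against WT motoneurons, the number of the 10 genes called (1) was 2 with a filter at a mean signal of 10, 3 with quantile normalization or WT replicates 1, 5 and 6 alone, 0 with an untrended prior or all 13 libraries in 1 fit, and 0 to 3 when a library was left out. The number of all genes called (1299) was 844 with an untrended prior, 247 with all 13 libraries, 2452 with WT replicates 2, 3 and 4 alone, 2315 with replicates 1, 5 and 6 alone, and 97 (without DKO replicate 1) to 2032 (without WT replicate 2). With the replicate number as a block, 0 of the 10 and 214 genes were called, and the differences of Ptbp1, Elavl4 and Rbfox1 were 0.029, -0.26 and -0.11. The labels do not say whether the number pairs WT and DKO libraries. Deviations of DKO replicate 1 correlated with those of WT replicates 1 and 2 at -0.05 and -0.01, which with 2 DKO libraries cannot decide it. Differences near 0 changed sign: Elavl2 was 0.060 (quantile), 0.086 (WT 1, 5 and 6) and 0.071 without WT 2 (left-out range -0.11 to 0.071). Elavl4 was -0.10 (WT 2, 3 and 4) and -0.044 (without DKO 2) to 0.16 (without WT 2) with a library left out. Rbfox1 was -0.095 (WT 2, 3 and 4) and -0.091 (without DKO 2) to 0.15 (without DKO 1), and Ptbp1 was 0.048 (WT 2, 3 and 4). Between WT motoneurons and interneurons, 3536 genes in place of 5419 were called with WT replicates 1, 5 and 6 alone. There Elavl3 was -0.026 and Elavl4 -0.0024. With quantile normalization Elavl3 was -0.16 and Elavl4 -0.048, and without a library Elavl3 was -0.021 (V1) to 0.19 (V3). Beyond fewer libraries in left-out fits, the cause was not tested.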
